A study of Sus scrofa with 4 samples.

Results

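Glutathione and antioxidant genes were read in LGR5-expressing hair follicle cells of the pig and in LGR5-negative epidermal cells. The 10 genes were taken by name from 29837 named genes, and all 10 passed the filter on low counts. They are NFE2L2 and KEAP1, which regulate the response to oxidants, the glutathione synthesis genes GCLC and GCLM, the peroxidase genes GPX2 and PRDX1, the superoxide dismutase genes SOD1 and SOD2, the quinone reductase gene NQO1 and the haem oxygenase gene HMOX1. RNA was sequenced from the sorted epidermis of 2 juvenile LGR5-H2B-GFP pigs, 88R and 95R, each giving 1 library of either population, LGR5-high and LGR5-negative. In this line a histone H2B-GFP sequence was placed by CRISPR/Cas9 into the first exon of an LGR5 allele, and clonal edited cells were used for somatic cell nuclear transfer, so the animals are such clones or their progeny. Both populations come from the same pigs and carry the knock-in, and the labels name no treatment. Hair and epidermis were peeled from the dermis with Dispase, trypsinized and sorted as live cells by GFP. LGR5-high (GFP-hi in the labels) is the bright population. LGR5-negative (GFP-neg) is the population without GFP, which mixes other cell types of the preparation. The study also sorted a GFP-low population, which is in neither set of libraries.

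Cells that live with oxygen form superoxide and hydrogen peroxide, and remove them in steps. Superoxide dismutases turn superoxide into hydrogen peroxide, and peroxiredoxins and glutathione peroxidases reduce the peroxide, drawing on thioredoxin and glutathione. NRF2, the protein of NFE2L2, is held low by KEAP1 and, when freed, switches on genes of this system, among them GCLC, GCLM, NQO1, HMOX1, PRDX1 and GPX2. In skin the system is known for protecting keratinocytes from ultraviolet light and chemicals.

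The libraries held between 30696803 and 32463362 counts on named genes. LGR5 had 132 and 188 CPM (TMM-normalized counts, scaled to a common effective library size) in LGR5-high of pigs 88R and 95R and 1.26 and 3.61 CPM in the LGR5-negative libraries. KRT5, a keratin of basal keratinocytes, was abundant in both populations with means of 24564 CPM in LGR5-high against 27828 CPM in LGR5-negative. The epidermal differentiation keratin KRT10 had means of 2663 and 28803 CPM in LGR5-high and LGR5-negative. Of 8 markers of the outer root sheath and bulge of the follicle 6 rose, among them LGR5, by whose reporter the cells were sorted. KRT15 and NFATC1 were not called. Of 7 markers of the interfollicular epidermis 5 fell, and KRT5 and IVL were not called. Among all tested genes 22.7% were called higher and 22.0% lower. In bulk libraries of this kind, fewer cells of a type and less RNA per cell cannot be told apart.

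Of the 10 genes, GCLM, GCLC and GPX2 rose in LGR5-high and PRDX1, NFE2L2 and SOD2 fell (edgeR quasi-likelihood test, Benjamini-Hochberg adjusted p below 0.05). The other 4, KEAP1, NQO1, HMOX1 and SOD1, did not pass. Among all 15980 tested genes 44.7% were called, 22.7% as higher and 22.0% as lower, which is the background for the 6 called of these 10. The 3 higher genes all differed at least 2-fold, as did 14.6% of all tested genes, and none of the 3 lower genes did. The CPM of the populations did not overlap for 8 of the 10 genes, HMOX1 and SOD1 being the exceptions, beside 76.6% of all tested genes. The median log2 fold change of the 10 genes was 0.16, pig 88R giving 0.25 and pig 95R giving 0.08, and that of all tested genes was 0.02. With the pig as a replicate block, 4 of the 10 rose and 4 fell, beside 28.5% and 27.2% of all tested genes (55.7% called in all). Permuting 4 libraries exactly gives no single gene a 2-sided p below 0.333, so no such test was made.

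**Figure D1:**
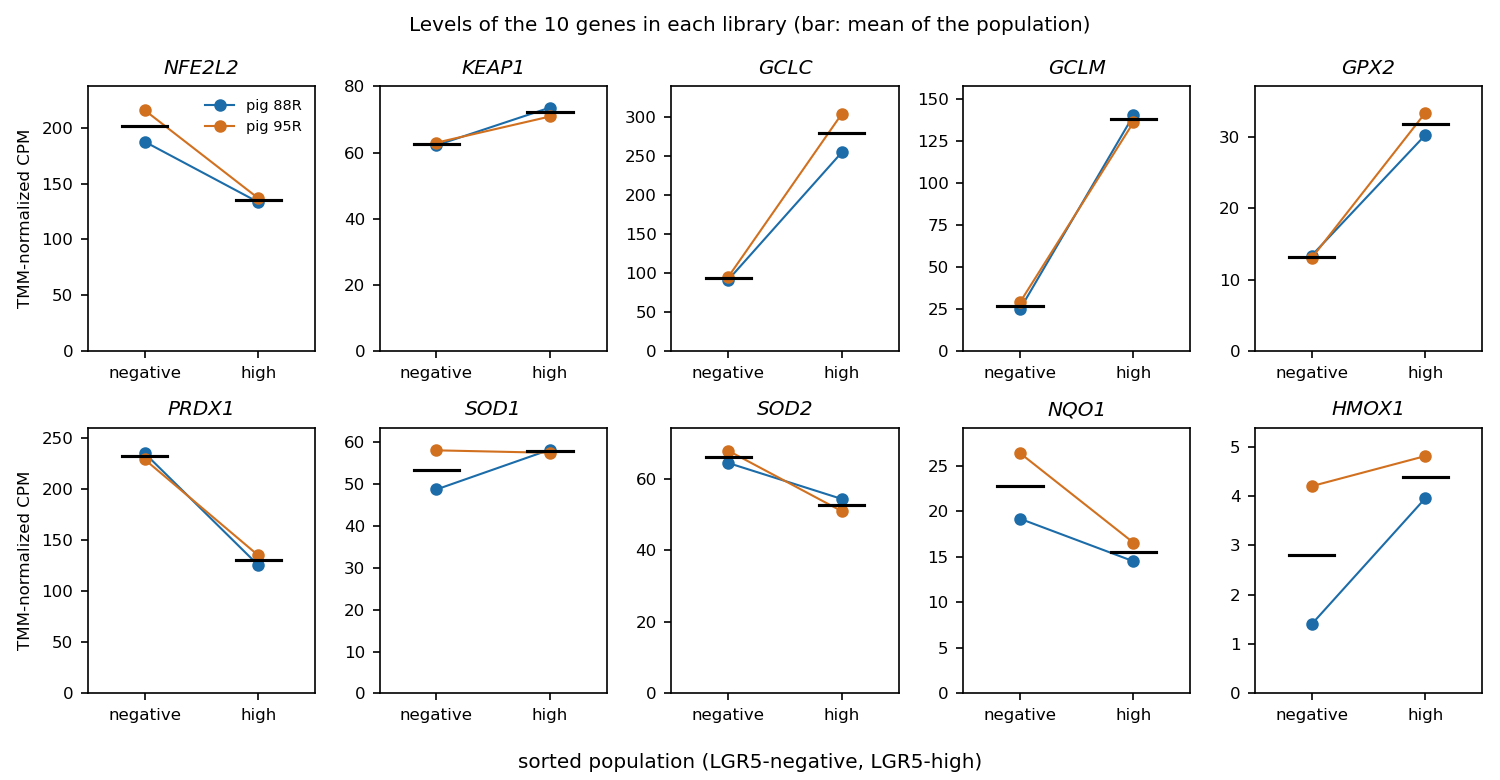
TMM-normalized CPM (vertical axis, from 0) of the 10 genes in the LGR5-negative and LGR5-high libraries, with a line joining the libraries of each pig and a bar at the mean of each population. GCLM runs from 25.1 and 29.2 CPM in LGR5-negative to 140 and 136 CPM in LGR5-high, while the HMOX1 levels of the populations overlap.

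NFE2L2 encodes the transcription factor NRF2. It had 133 CPM in the LGR5-high library of pig 88R and 137 CPM in that of pig 95R, against 187 and 215 CPM in the LGR5-negative libraries. Both LGR5-high libraries were below both LGR5-negative libraries. LGR5-high averaged 135 ± 2.50 CPM and LGR5-negative 201 ± 19.9 CPM (SD, n = 2 pigs). The fitted log2 difference of NFE2L2 was -0.58 (standard error 0.0947, adjusted p = 0.00517 by edgeR), pig 88R giving -0.49 and pig 95R giving -0.65.

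KEAP1 encodes the adaptor that brings NRF2 to a ubiquitin ligase for degradation. Its levels were 73.6 and 70.9 CPM in LGR5-high of pigs 88R and 95R, and 62.3 and 63.0 CPM in the LGR5-negative libraries. The populations did not overlap, but the gap was small. The log2 fold change of 0.21 (standard error 0.0794) did not pass the test (adjusted p = 0.0819 by edgeR). It passed under upper quartile scaling (0.30, adjusted p = 0.0249 by edgeR) and with library size only (0.43, adjusted p = 0.00819), scalings that place the median of all tested genes at 0.11 and 0.24.

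In the annotation of Sscrofa11.1 by RefSeq, the gene span of NFE2L2 touches those of AGPS and HNRNPA3, that of GPX2 touches CHURC1 and that of SOD1 touches SCAF4. HMOX1 is not placed on a chromosome there. The strand setting of the counting is not given in the sources used here, so reads in shared stretches could not be assigned. The log2 fold changes were -0.01 for CHURC1, -0.16 for HNRNPA3 and -0.34 for SCAF4, and none of these or AGPS passed the test (adjusted p-values of 0.925, 0.150, 0.0534 and 0.981 by edgeR), but SCAF4 passed with the pig as a replicate block (adjusted p = 0.0103).

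A further 13 regulators of the NRF2 pathway were tested, of which 3 (23.1%) rose and 6 (46.2%) fell, with a median log2 fold change of -0.31. Among all tested genes 22.7% were called higher and 22.0% lower, which is also the background for each list below. BACH2, which belongs to a family of repressors that compete with NRF2 for its sites, rose with a log2 fold change of 2.08 (standard error 0.145). It had 78.3 and 61.3 CPM in LGR5-high against 16.1 and 16.9 CPM in LGR5-negative. BACH1, of the same family and named outside the rule, was more abundant and did not rise. It had 226 and 234 CPM in LGR5-high against 256 and 275 CPM in LGR5-negative. Its log2 fold change of -0.21 did not pass the test (adjusted p = 0.0825 by edgeR). NFE2L3, a relative of NFE2L2, rose by 0.92 on the log2 scale. The small MAF genes encode the DNA-binding partners shared by NRF2 and the BACH factors, and all 3 of them fell. MAFF had 133 and 147 CPM in LGR5-high against 303 and 356 CPM in LGR5-negative, a log2 fold change of -1.24. MAFK had a log2 fold change of -1.16 and MAFG, which lies outside the naming rule, one of -0.92. BACH2, NFE2L3, MAFF, MAFK and MAFG kept their call under each of the other scalings, and their sign when any single library was left out.

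Of 9 immediate-early and heat shock genes, which respond to cell dissociation, 5 fell, 4 (FOS, JUN, EGR1 and IER2) did not pass the test and none rose. Those that fell were FOSB, JUNB and HSPH1, with ATF3 (-0.90) and DNAJB1 (-0.64) on the log2 scale, and 8 of the 9 fell with the pig as a replicate block. All 9 summed to 12536 and 15774 CPM in LGR5-high against 17193 and 20667 CPM in LGR5-negative, and none was at 0. Their part in the levels of the small MAF genes, NFE2L2 and HMOX1 was not tested.

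GCLC and GCLM encode the catalytic and the modifier subunit of glutamate-cysteine ligase, the rate-limiting enzyme of glutathione synthesis, and both rose. GCLC had 255 and 304 CPM in LGR5-high of pigs 88R and 95R and 91.7 and 95.4 CPM in the LGR5-negative libraries. GCLM had 140 and 136 CPM in LGR5-high against 25.1 and 29.2 CPM in LGR5-negative. Every LGR5-high library was above every LGR5-negative library for both genes. The log2 fold change of GCLC was 1.58 (standard error 0.109, adjusted p = 0.000256 by edgeR), a 2.99-fold difference, pig 88R giving 1.47 and pig 95R giving 1.67. That of GCLM was 2.35 (standard error 0.103, adjusted p = 8.05e-05), a 5.10-fold difference, with 2.48 and 2.22 in the same pigs. GCLM ranked 144 by p-value among all 15980 tested genes and GCLC ranked 581. The value of GCLM was above that of GCLC in each pig, and no test between the genes was made.

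Another 12 genes of glutathione synthesis and recycling were tested, of which 5 rose and 3 fell, with a median log2 fold change of 0.32. SLC7A11, the transporter that brings in cystine for glutathione synthesis, had 207 and 136 CPM in LGR5-high against 23.3 and 27.3 CPM in LGR5-negative. Its fitted log2 difference was 2.76 (standard error 0.221, adjusted p = 0.000411 by edgeR), pig 88R giving 3.15 and pig 95R giving 2.31. SLC3A2, the heavy chain that SLC7A11 pairs with, rose by 0.75, and GSS, which adds glycine in the last step of synthesis, rose by 1.19 on the log2 scale. Both were picked out after their values were seen. The genes of glutathione use and recycling were mixed. GGT7, of the gamma-glutamyltransferase family, rose by 1.23, while GGCT, which breaks down gamma-glutamyl peptides, fell by 0.79. GSR, the reductase that regenerates glutathione, had a log2 fold change of -0.41 (adjusted p = 0.0491 by edgeR), and was called in only 3 of the 15 other settings tried, being lost when any single library was left out, with upper quartile scaling, with library size only (-0.19), under both other filters and in DESeq2 with and without the block.

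**Figure D2:**
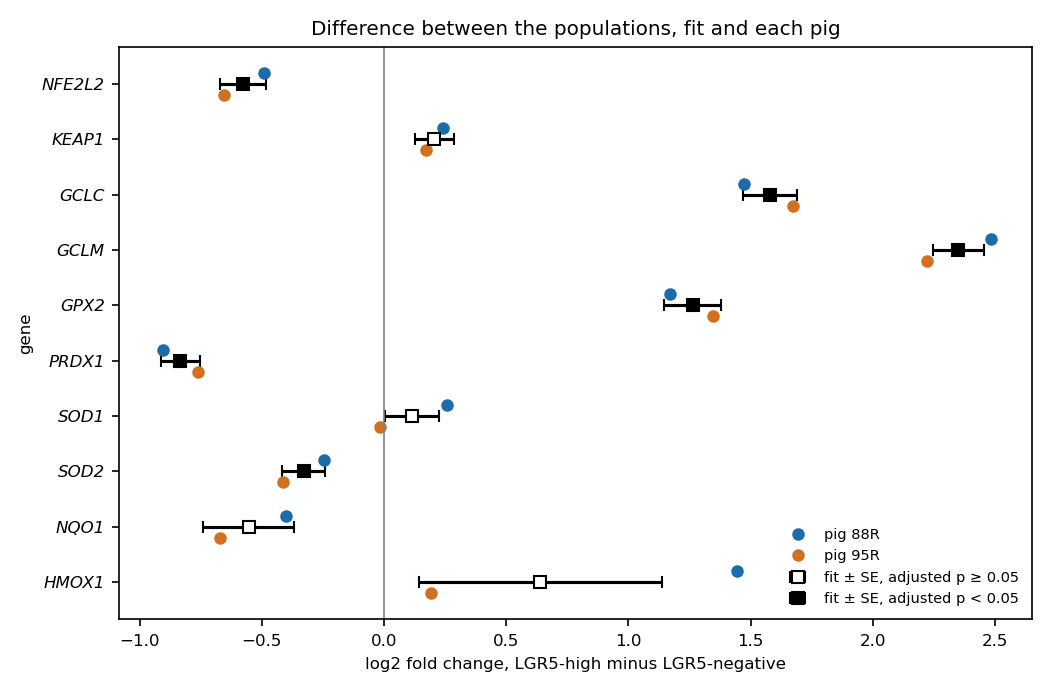
Log2 fold change of LGR5-high over LGR5-negative (horizontal axis) for each of the 10 genes, as the edgeR fit with its standard error (squares, filled where the adjusted p-value is under 0.05) and in each pig (circles). GCLM, GCLC and GPX2 lie above 1 in the fit and in both pigs, and the pigs are farthest apart for HMOX1, at 1.45 and 0.19.

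GPX2 encodes a glutathione peroxidase known best from the gut epithelium. It had 30.2 and 33.3 CPM in LGR5-high of pigs 88R and 95R, and 13.4 and 13.1 CPM in the LGR5-negative libraries. The populations were well apart in both pigs, with means of 31.8 ± 2.19 and 13.2 ± 0.236 CPM (SD, n = 2 pigs). LGR5-high over LGR5-negative gave a log2 fold change of 1.26 (standard error 0.117, adjusted p = 0.000653 by edgeR), a 2.40-fold difference, pig 88R giving 1.17 and pig 95R giving 1.35.

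Of 5 other glutathione peroxidase genes that were tested, 2 rose and 2 fell, with a median log2 fold change of 0.83. GPX1, the widely expressed cytosolic form, fell with a log2 fold change of -0.88, from 32.5 and 45.2 CPM in LGR5-negative to 18.5 and 23.8 CPM in LGR5-high. GPX4, which reduces lipid peroxides in membranes, had a log2 fold change of -0.35, and lost its call with library size only (-0.12), with upper quartile scaling and when the LGR5-high library of either pig or the LGR5-negative library of pig 88R was left out. GPX8, a form of the endoplasmic reticulum, rose by 0.83. GPX1 lost its call without the LGR5-high library of pig 88R (adjusted p = 0.0755 by edgeR) and GPX8 without that of pig 95R (adjusted p = 0.0554). GPX5 and GPX6 had 0 counts in every library.

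PRDX1 encodes a peroxiredoxin of the cytosol that is reduced by thioredoxin. It was at 125 and 135 CPM in LGR5-high of pigs 88R and 95R, against 235 and 229 CPM in the LGR5-negative libraries. Both LGR5-high libraries were lower than both LGR5-negative libraries. On the log2 scale the difference was -0.83 (standard error 0.0803, adjusted p = 0.000765 by edgeR), or 1.78-fold higher in LGR5-negative, pig 88R giving -0.91 and pig 95R giving -0.76. Peroxiredoxin genes have processed copies in mammalian genomes, and how the counting treated reads that match several places is not given in the sources used here.

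The other 15 genes of the peroxiredoxin and thioredoxin system moved both ways, 7 up and 5 down, with a median log2 fold change of 0.09. PRDX6, a peroxiredoxin that also acts on phospholipids, fell from 172 and 154 CPM in LGR5-negative to 47.2 and 52.0 CPM in LGR5-high, a log2 fold change of -1.72 (standard error 0.0986). PRDX2 and the mitochondrial PRDX3, both picked out after their values were seen, rose by 0.81 and 0.75. Among the sestrins, stress-induced regulators that limit peroxide and growth signals, SESN3 rose by 2.13 and SESN1 by 1.41, while SESN2 fell by 1.54 on the log2 scale. SESN3 had 359 and 326 CPM in LGR5-high against 79.0 and 77.2 CPM in LGR5-negative. TXNRD1, the cytosolic thioredoxin reductase, also outside the naming rule, rose by 1.10, pig 88R giving 1.43 and pig 95R giving 0.79.

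SOD1 encodes the copper and zinc superoxide dismutase of the cytosol. It had 58.2 and 57.4 CPM in LGR5-high of pigs 88R and 95R, and 48.7 and 58.0 CPM in the LGR5-negative libraries. The LGR5-negative library of pig 95R lay within the range of the LGR5-high libraries, so the populations overlapped. The log2 fold change of 0.12 (standard error 0.111) did not pass the test (adjusted p = 0.432 by edgeR). Pig 88R gave 0.26 and pig 95R gave -0.01, the only 1 of the 10 genes with a change of sign between the pigs.

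SOD2 encodes the manganese superoxide dismutase of mitochondria. Its levels were 54.4 and 51.0 CPM in the LGR5-high libraries and 64.5 and 67.9 CPM in the LGR5-negative libraries of 88R and 95R, respectively. LGR5-high was the lower population in both pigs, without overlap. The edgeR estimate on the log2 scale was -0.33 (standard error 0.0877, adjusted p = 0.0273 by edgeR), the smallest of the 6 called changes among the 10 genes. The call was lost when any single library was left out, with adjusted p-values between 0.0570 and 0.134, and with upper quartile scaling (-0.23) and library size only (-0.11).

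Among SOD3, the copper chaperone gene CCS and the catalase gene CAT, only SOD3 was called. SOD3, the extracellular dismutase, had 1.57 and 2.69 CPM in LGR5-high against 17.6 and 14.6 CPM in LGR5-negative, a log2 fold change of -2.92 (standard error 0.287, adjusted p = 0.000817 by edgeR). Markers of other cells fell alongside. Of 6 fibroblast and dermal papilla markers 5 fell and COL1A1 rose, and of 5 endothelial markers 4 fell. The summed level of the fibroblast markers was 232 and 449 CPM in LGR5-high against 351 and 228 CPM in LGR5-negative, so these ranges overlapped, and that of the endothelial markers was 4.88 and 6.75 CPM in LGR5-high against 17.6 and 19.2 CPM in LGR5-negative. LUM and PDGFRA of the fibroblasts were low in both populations, with means of 0.0727 and 0.104 CPM in LGR5-high and 1.34 and 0.716 CPM in LGR5-negative. LUM was at 0 counts in the LGR5-high library of pig 95R. DCN and COL1A1 had means of 97.5 and 237 CPM in LGR5-high and 172 and 65.6 CPM in LGR5-negative. The part of these cells in the level of SOD3 was not tested.

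NQO1 encodes a reductase of quinones and is the classic reporter of NRF2 activity. It had 14.5 and 16.5 CPM in LGR5-high of pigs 88R and 95R, and 19.2 and 26.4 CPM in the LGR5-negative libraries. The LGR5-high libraries were the lower ones, and the LGR5-negative libraries differed from each other by more than the LGR5-high libraries did. The log2 fold change of -0.55 (standard error 0.185) did not pass the test (adjusted p = 0.0550 by edgeR), pig 88R giving -0.40 and pig 95R giving -0.67. With the pig as a replicate block it passed (-0.54, adjusted p = 0.00186 by edgeR), as it did when the LGR5-negative library of pig 88R was left out (-0.77, adjusted p = 0.0105). Without the LGR5-negative library of pig 95R the value was -0.31 (adjusted p = 0.187 by edgeR), and it did not pass without either LGR5-high library (highest adjusted p = 0.201).

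Of 9 other reductase and related genes of the NRF2 response that were tested, 4 rose and 4 fell, with a median log2 fold change of 0.71. CBR1, a carbonyl reductase, had read counts of 758 and 752 in LGR5-high, with 28 and 12 in LGR5-negative, or 22.0 and 22.8 CPM against 0.982 and 0.397 CPM. Its fitted log2 difference was 5.03 (standard error 0.346, adjusted p = 0.000256 by edgeR), the largest among the 92 other pathway genes tested. CBR3, its close relative, fell by 0.71, but lost its call without the LGR5-negative library of pig 88R, without the LGR5-high library of pig 95R (highest adjusted p = 0.100 by edgeR) and with library size only. EPHX1, the microsomal epoxide hydrolase, rose by 2.52, from 7.61 and 9.69 CPM to 50.1 and 49.1 CPM. NQO2, the relative of NQO1 that was picked out after its value was seen, rose by 2.02, pig 88R giving 2.39 and pig 95R giving 1.60. NQO1 and NQO2 thus had log2 fold changes of opposite sign in both pigs, and that of NQO1 did not pass the test. UGDH, which makes the sugar donor for glucuronidation, had a log2 fold change of -0.41, which lost its call with library size only (-0.19), with upper quartile scaling, and without the LGR5-negative library of pig 88R or the LGR5-high library of pig 95R.

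HMOX1 encodes the inducible haem oxygenase, which splits haem into biliverdin, iron and carbon monoxide. It was the lowest counted of the 10 genes, at 136 and 159 read counts in LGR5-high of pigs 88R and 95R, with 40 and 127 in LGR5-negative. In CPM these were 3.95 and 4.81 in LGR5-high, and 1.40 and 4.20 in LGR5-negative, above the 0.0872 to 0.105 CPM that 3 counts make, a value that covers counting error only. The LGR5-negative library of pig 95R lay between the LGR5-high libraries, so the populations overlapped. The log2 fold change of 0.64 (standard error 0.497) did not pass the test (adjusted p = 0.336 by edgeR), pig 88R giving 1.45 and pig 95R giving 0.19. With the pig as a replicate block it was 0.77 and passed (adjusted p = 0.0318 by edgeR). The value turned on the LGR5-negative libraries, being 1.63 without that of pig 95R (adjusted p = 0.0106 by edgeR) and 0.05 without the LGR5-negative library of pig 88R (adjusted p = 0.900).

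HMOX1 is also a known gene of macrophages. Of 7 leukocyte markers that were tested, 4 fell in LGR5-high and AIF1 rose. Their summed level, over the 9 markers counted, was 16.8 and 16.4 CPM in LGR5-high against 103 and 147 CPM in LGR5-negative, the higher of the last pair in pig 95R. CD3E and CD2, markers of T cells, were at 0 counts in both LGR5-high libraries. In the LGR5-negative libraries CD3E had only 1 and 2 counts and CD2 had 3 and 3, and neither gene was tested. Melanocyte markers fell as well, 5 of 7, with summed levels of 62.5 and 62.6 CPM in LGR5-high and of 85.0 and 261 CPM in the LGR5-negative libraries of 88R and 95R, respectively. The part of these cells in the level of HMOX1 was not tested.

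Around HMOX1, 6 other genes of haem breakdown and iron handling were tested, of which 3 rose and 1 fell, with a median log2 fold change of 0.44. BLVRB, one of the biliverdin reductases, rose by 0.84, and FTL, the ferritin light chain, rose by 0.89, from 494 and 498 CPM in LGR5-negative to 941 and 900 CPM in LGR5-high. SLC40A1, the iron exporter ferroportin, fell by 1.14, from 65.6 and 64.3 CPM to 30.8 and 28.0 CPM. All 3 were called under each of the other scalings and without any single library.

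The remaining lists held enzymes that use glutathione or supply its reducing power. Of 8 glutathione transferase genes tested, 3 rose and none fell, with a median of 0.12. GSTM3 had 50.2 and 66.6 CPM in LGR5-high against 13.0 and 18.7 CPM in LGR5-negative (log2 fold change 1.88), MGST1, a membrane-bound transferase that is also listed here as a sebaceous gland marker, had a log2 fold change of 1.89, and GSTA4, added after its value was seen, one of 1.55. Of the sebaceous gland markers, 4 of 8 were tested. MGST1 and SCD rose, while FASN (-0.19) and AWAT2 (0.07) did not pass the test. The summed level of the 8 was 1067 and 970 CPM in LGR5-high against 1027 and 971 CPM in LGR5-negative. AWAT1 was at 0 counts in every library. The part of sebaceous gland cells in the level of MGST1 was not tested. Of 6 genes of NADPH supply, 3 rose and none fell, with a median of 0.43. IDH1, the cytosolic isocitrate dehydrogenase, rose by 0.92, and TALDO1, the transaldolase, named after its value was seen, rose by 0.59.

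Of 8 glutaredoxins and methionine sulfoxide reductases, 1 rose and 2 fell, with a median of -0.09. MSRB3 rose by 0.51 and MSRA fell by 0.69, and each lost its call in at least 1 leave-out, MSRB3 without the LGR5-high library of pig 88R and MSRA without that of either pig, without the LGR5-negative library of pig 88R and also with library size only. Of 7 genes for enzymes that make superoxide or peroxide, 1 rose and none fell, with a median of -0.08. That gene, NOX5, was at 44 and 45 counts in LGR5-high and 3 and 11 counts in LGR5-negative, and lost its call without the LGR5-high library of either pig (highest adjusted p = 0.0783 by edgeR). With the pig as a replicate block, 2 of the 7 rose and 1 fell.

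Over the 11 lists, 92 pathway genes other than the 10 were tested, of which 32 (34.8%) rose and 24 (26.1%) fell, beside 22.7% and 22.0% of all tested genes. Their median log2 fold change was 0.04. At least 2-fold higher were 17 genes (18.5%) and at least 2-fold lower were 8 (8.70%), beside 14.6% and 9.42% of all tested genes. With library size only, the split was 38 higher and 12 lower, beside 34.2% and 14.6% of all tested genes. In the plot of the lists, 7 of the 11 held both higher and lower genes.

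**Figure D3:**
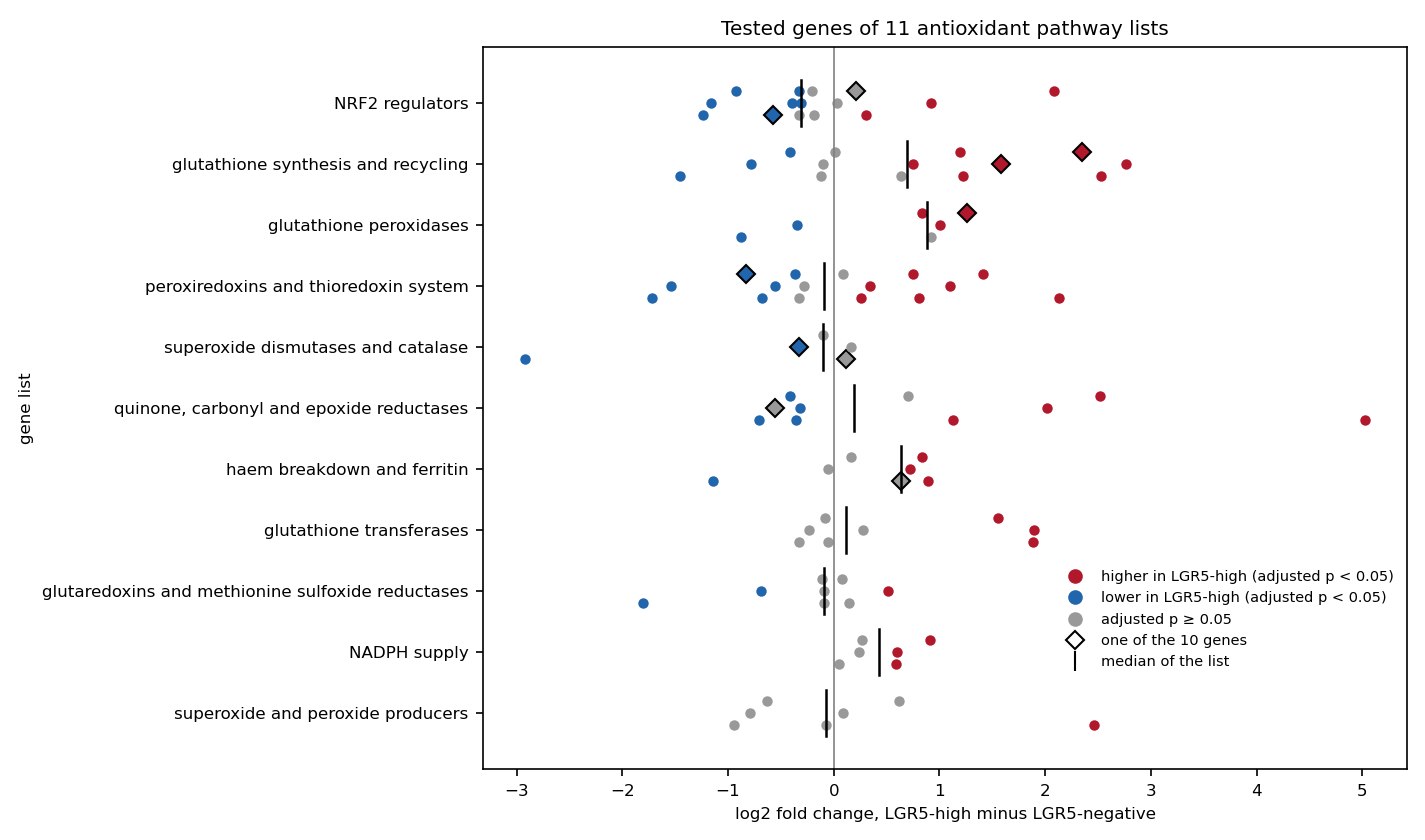
Log2 fold change of LGR5-high over LGR5-negative (horizontal axis) for every tested gene of 11 pathway lists (rows), coloured by call, with diamonds for the 10 genes and a bar at the median of each list. The list medians run from -0.31 for the NRF2 regulators to 0.88 for the glutathione peroxidases, and CBR1 lies farthest to the right at 5.03.

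**Figure D4:**
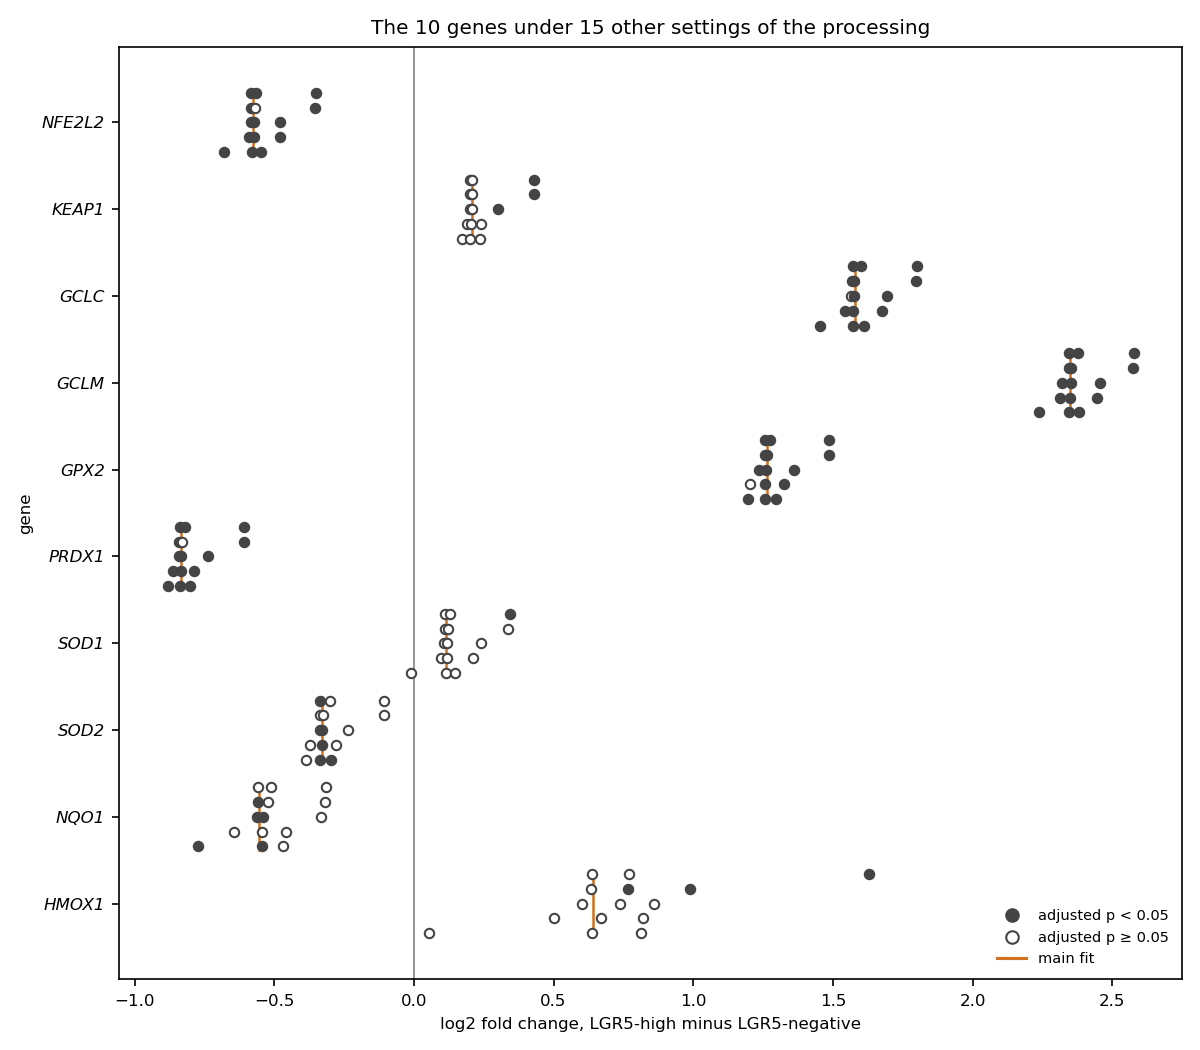
Log2 fold change of the 10 genes (rows) under 15 other settings of the processing, filled where the adjusted p-value is under 0.05, with a line at the value reported above. GCLM is called under all 15, between 2.24 and 2.58, and HMOX1 runs from 0.05 to 1.63.

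The 15 settings were other scalings, filters, tests and pairings, and each library left out in turn. GCLM kept its call under all 15. GCLC, GPX2, PRDX1 and NFE2L2 kept theirs under all but the test named in the study's methods, where their adjusted p-values lay between 0.0502 and 0.0978. SOD2 lost its call under 9 of the 15. Of the uncalled genes, NQO1 was called under 5, KEAP1 under 3, HMOX1 under 3 and SOD1 under 1.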

How the data were processed

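Poly(A)-selected RNA of sorted epidermal cells was sequenced in 4 libraries, LGR5-high and LGR5-negative of pigs 88R and 95R. The authors deposited raw counts per gene. The submitters' processing notes name Trimmomatic 0.36, STAR 2.5.2b and featureCounts of Subread 1.5.2, while the genome build, the strand setting and the treatment of reads matching several places are not given in the sources used here. Reads lost to these steps cannot be recovered, and copies or overlapping genes may share counts. One unnamed entry (0.360% to 0.626% of counts) was left out.

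Counts were fitted with edgeR 4.0.16 in R 4.3.3 (TMM scaling, quasi-likelihood test, population as the only term, 2-sided) over 15980 genes left by filterByExpr (minimum count 10, minimum total 15), and p-values were adjusted over all of them by Benjamini-Hochberg at 0.05. The deposited gene names were matched to RefSeq names of Sscrofa11.1 for 29837 genes. Values for a single pig use a prior count of 2. With 2 pigs, p-values of this fit rest on the spread between the pigs within each population, with variances moderated across genes. They leave out the pairing by pig and cover these 4 libraries only. LGR5-high and LGR5-negative libraries of the same pig deviated together (correlation 0.371 over the tested genes), and the pairing comes from the pig named in the labels. A check for libraries deposited more than once found none within a population (chi-square per degree of freedom between pigs 20.3 and 23.1), so each library was counted as a sample. Alternatives were upper quartile scaling, DESeq2 1.42.0 size factors and test, library size only, other filters, the pig as a replicate block, limma-voom (limma 3.58.1), Student's t-test (the test the study's methods name, here applied to log2(CPM + 1), a scale chosen for this work), and each library left out. Library size only with the block was added after seeing the data. The analysis was tested on simulated counts with known changes and no pig effect. Only 47 to 50 of the tested genes were changed at each size, while 44.7% of tested genes were called in the real data. The adjustment of p-values therefore differs between them, and the recovery rates need not hold for the real data. The edgeR fit recovered 12.8% of genes changed by 0.5 on the log2 scale and 53.1% of those changed by 1. It recovered 80% at a change of 2 and 96% at a change of 3. These were 6, 26, 40 and 48 recovered genes, from the smallest size to the largest. The same fit made 14 false calls, counted over all sizes together, among 15656 genes tested.

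The 10 genes and all gene lists were chosen with earlier results of these data known. In each list the called genes with the 2 largest changes in each direction were named, if both pigs had the same sign and the higher population had a mean of at least 5 CPM. Others named were chosen after their values were seen. Listed symbols without an entry, and sequences, were not analysed here. One gene that the naming rule picked is not reported here.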

Additional observations from a re-analysis of the deposited data

How the results depend on the processing

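Among the 10 genes, 3 higher and 3 lower calls became 4 and 4 with the pig as a replicate block, 1 and 0 under Student's t-test (4 and 3 at an unadjusted p under 0.05), and 6 and 2 with library size only plus the replicate block, a setting chosen after seeing the data. Leaving out 1 library gave 3 to 4 higher and 2 to 3 lower. With 1 library left out, the log2 fold change of SOD1 ran from -0.012, without the LGR5-negative library of pig 88R (adjusted p = 0.948 by edgeR), to 0.24, and the cause was not tested.

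Of the 92 other pathway genes, 32 higher and 24 lower calls became 35 and 27 with the replicate block. The lower count was 15 with upper quartile scaling and 12 with library size only, and the t-test left 6 higher and 2 lower (30 and 20 unadjusted). Leaving out 1 library gave 26 to 29 higher and 12 to 19 lower, with 13 lower without LGR5-high 88R, 14 without LGR5-negative 88R, 12 without LGR5-high 95R and 19 without LGR5-negative 95R, each fit having fewer samples. Over all tested genes the share called higher was 34.2% with library size only, 40.1% with the block added and 3.40% under the t-test, and the share called lower was 14.6%, 17.3% and 3.14%. Leaving out 1 library gave 13.9% to 19.1% higher and 13.0% to 18.1% lower. With 2 pigs, changes as small as those of SOD1 and KEAP1 were not resolved, and HMOX1 had only 40 counts in its lowest library.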

Other observations

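Ratios of read counts within a library do not depend on scaling, and 4 were taken after the values were seen. Counts of GCLC over those of GCLM were 1.82 and 2.23 in LGR5-high of pigs 88R and 95R and 3.66 and 3.27 in the LGR5-negative libraries. Counts of KEAP1 over NFE2L2 were 0.552 and 0.518 in LGR5-high and 0.332 and 0.293 in LGR5-negative. The populations did not overlap in either ratio. GPX2 over GPX1 was 1.63 and 1.40 in LGR5-high and 0.412 and 0.289 in LGR5-negative, so GPX2 had the larger count in one population and GPX1 in the other. SOD1 over SOD2 was 1.07 and 1.13 against 0.755 and 0.854. Gene length enters each ratio, so they compare libraries and not the levels of the genes.

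GPX3, the secreted glutathione peroxidase, separated the pigs more than the populations. It had 14.0 and 7.56 CPM in LGR5-high of pigs 88R and 95R and 8.73 and 2.65 CPM in the LGR5-negative libraries. Its log2 fold change of 0.92 did not pass the test (adjusted p = 0.235 from edgeR) and passed with the pig as a replicate block (adjusted p = 0.000261). It ran from 0.29 without the LGR5-negative library of pig 95R and 0.40 without the LGR5-high library of pig 88R to 2.02 without the LGR5-negative library of pig 88R, the only 1 of the 4 leave-outs in which it passed (adjusted p = 0.0116 by edgeR).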
